A study of Oncorhynchus kisutch with 206 samples.

Results

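Coho salmon caught off the west coast of Vancouver Island in the summer of 2009 were compared with coho caught in the Strait of Georgia in the same season. All arrays labelled with the season Ocean_Summer and the year 2009 were taken, which gave 43 of the 206 brain arrays of the series. The west coast side holds the 8 fish with the place label WCVI. The Strait side holds 35 fish, 29 with the label NM_SoG (16 from mid_SoG and 13 from north_SoG, called the northern-mid Strait here) and 6 with the label south_SoG. Each array carried brain RNA of 1 fish in Alexa 555 against a pool of all brain samples in Alexa 647, and fish number is the replicate. The series follows juvenile coho from rivers through their first seasons at sea.

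Coho hatch in fresh water, migrate to sea as smolts and grow there before they return to spawn. The Strait of Georgia is sheltered water enclosed by Vancouver Island and the mainland, while the west coast of the island faces the open Pacific shelf. The brain holds neurons, glia and the hypothalamic cells that act on feeding, growth and stress hormones. In bulk tissue, a change in the number of cells of a type and a change in RNA per cell cannot be told apart.

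The sides differ in more than the place. West coast fish came from the stock regions Columbia (6), Oregon (1) and North (1), and Strait fish from ECVI (10), Fraser (16) and S_Main (9), with 0 regions in common, so place and stock cannot be told apart. Of the west coast fish 7 of 8 were wild and 1 was of hatchery origin, against 17 wild and 18 hatchery fish in the Strait. Sex is labelled U in all 8 west coast fish, and the Strait side has 16 F and 19 M. The 43 arrays lie on 28 slides, of which 3 hold both sides with 3 west coast and 4 Strait fish. Position 1 on the slide was used for 5 of the 8 west coast fish and 8 of the 35 Strait fish. West coast fish share capture sites, at latitudes 48.675 (3 fish), 49.107 (3) and 49.836 (2). Fork lengths there were 16.4 ± 1.94, 14.5 ± 0.252 and 17.4 ± 0.919 cm (mean ± SD). Some Strait fish also share coordinates. No test took the capture site into account. Strait fish 2890 and 2918 share length, mass, sex, origin and stock labels, so a repeat of 1 animal is possible. Their labelled capture coordinates differ, with longitudes of -124.61 and -124.33. By correlation over probes, the closest array to 2890 was that of fish 2289, and to 2918 that of fish 2905. Whether they are 1 animal was not tested.

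The deposited values are log ratios, read here as log2 of fish over pool. Neither the base nor the direction is stated in a label. Both are called likely from the values of the whole series, and a natural log is not excluded. With the other direction, every "higher" and "lower" probe level below would change places. Body measures, the presence of a value and the scores on axes drawn from other fish would stay as they are. The 43 arrays had medians from -0.02 to 0.06 and between 17.2% and 48.4% of empty values. Precision is limited by how many arrays there are. The probes are named by their column (C) and row (R) on the array, and the files do not pair them with genes. They are therefore described by their values, and no gene group could be counted.

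West coast fish were shorter and lighter and had a lower condition factor. Fork length ran from 14.2 to 18.0 cm with a median of 15.7 cm on the west coast, and from 13.2 to 24.1 cm with a median of 17.9 cm in the Strait. Means were 15.9 ± 1.68 cm (SD, n = 8) and 18.2 ± 2.2 cm (n = 35; exact permutation test, two-sided, p = 0.0104, adjusted p = 0.0207 over 6 measures). Body mass averaged 44.8 ± 15.2 g (n = 8) against 76.2 ± 29 g (n = 33; exact permutation p = 0.00605, adjusted p = 0.0181). Condition factor, which sets mass against the cube of length, was 1.07 ± 0.0748 (n = 8) on the west coast and 1.19 ± 0.088 (n = 33) in the Strait (exact permutation p = 0.00127, adjusted p = 0.00763). All 8 west coast fish lay below the Strait mean of each of these 3 measures, and single fish of both sides overlapped. The 6 south Strait fish, at 16.5 ± 1.27 cm, were nearer to the west coast fish in length than those of mid_SoG (18.3 ± 1.58 cm) or north_SoG (18.8 ± 2.84 cm).

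**Figure D1:**
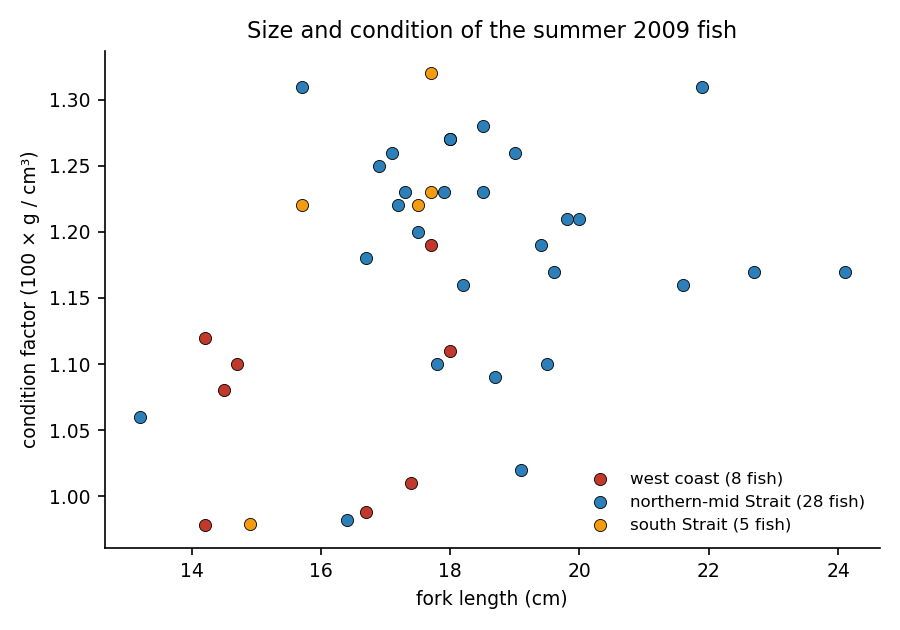
Fork length (cm, x axis) and condition factor (y axis) of each summer 2009 fish with a usable mass, 1 point per fish, coloured by place. West coast fish lie between 14.2 and 18.0 cm and between 0.978 and 1.19 in condition, toward the lower left of the Strait fish.

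None of the 3 array measures passed the test. The mean share of empty values was 30 ± 9.3% (SD, n = 8) on the west coast and 33.0 ± 8.27% (n = 35) in the Strait (exact permutation p = 0.379, adjusted p = 0.57). The SD of an array was 0.764 ± 0.148 (n = 8) against 0.736 ± 0.127 (n = 35; exact permutation p = 0.588, adjusted p = 0.706). Array medians were 0.00536 ± 0.00987 (n = 8) and 0.0043 ± 0.0139 (n = 35; exact permutation p = 0.84, adjusted p = 0.84).

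Few single probes were called between the coasts. Of 33111 probes that had 3 or more values on both sides, 8 were called (0.0242%; limma with the slide as a random block, Benjamini-Hochberg adjusted p under 0.05). Lower on the west coast were 6 probes (0.0181%) and higher 2 (0.00604%). At an adjusted p under 0.10 the number was 340 (1.03%), and 5125 probes had an unadjusted p under 0.05 (15.5%), 2949 of them lower (8.91%) and 2176 higher (6.57%) on the west coast. Among those 5125 the median difference was -0.58 for the lower and 0.58 for the higher probes. Over all tested probes 51% were lower and 49% higher.

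The number of calls rested on which fish and which model were used. Without fish 2311 or without fish 2314 it was 2, without fish 2286 or 2288 it was 4, without 2289 or 2313 it was 12, without 2360 it was 34 and without 2361 it was 75. With wild fish alone (7 against 17) it was 0, with the slide as a fixed term 0, and with Strait fish in the length range of the west coast fish (19 fish) 2. When all 206 arrays shared 1 estimate of the spread, 335 probes were called, 57 of them higher on the west coast, and all 8 probes were among them. With the share of empty values as a term it was 6, and C061R037 was among the calls lost (1.10, limma adjusted p = 0.0578).

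The largest fall was at probe C055R074. Its log2 ratios in the 8 west coast fish were -4.12 (fish 2314), -2.96 (2286), -2.24 (2360), -1.84 (2289), -1.57 (2361), -1.08 (2313), -0.78 (2311) and 0.00 (2288). The Strait fish ran from -1.56 to 2.17 with a median of 0.33. All 35 Strait fish lay above the west coast mean, and 12 of them lay below fish 2288, the highest west coast fish. The fitted difference was -2.13 (SE 0.34, limma adjusted p = 0.003), a 4.37-fold lower ratio, or 8.38-fold if the values are natural logs. The call was kept without each west coast fish in turn (adjusted p 0.000276 to 0.028). It was lost with wild fish only (-2.35, adjusted p = 0.0759) and within the 3 shared slides (-3.06, adjusted p = 0.259). On 1 of these slides fish 2314 stood against fish 2890 and 2918, which may be 1 animal.

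Probe C209R015 showed the second largest fall. West coast ratios were -3.42 (fish 2286), -2.83 (2289), -2.54 (2360), -2.52 (2361), -2.42 (2313), -1.32 (2288), -1.14 (2311) and -0.07 (2314). The Strait fish with a value (n = 33) ran from -2.35 to 0.99 with a median of -0.37. Fish 2314, the lowest at C055R074, was the highest west coast fish here, and 20 Strait fish lay below it. The difference was -1.71 (SE 0.30, limma adjusted p = 0.00901, 3.28-fold). The call was lost without fish 2286 (-1.52, adjusted p = 0.0605), with wild fish only (-1.73, adjusted p = 0.138), in the length range of the west coast fish (-1.87, adjusted p = 0.0635), with the slide as a fixed term (-1.22, adjusted p = 0.462) and with all arrays and the slide fixed (-1.47, adjusted p = 0.0837).

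The 2 probes that were higher on the west coast changed by about the same amount. At C166R130 the west coast fish ran from -0.11 to 1.03, around a median of 0.58. The Strait fish lay between -1.76 and 0.62, around a median of -0.66. Only 1 Strait fish, fish 2890 at 0.62, lay above the west coast mean of 0.48, and 6 lay above the lowest west coast fish. The difference was 1.14 (SE 0.22, limma adjusted p = 0.0289, 2.2-fold). At C061R037 the 7 west coast fish with a value ran from -0.86 to 0.49, and the 25 Strait fish from -2.28 to -0.09. Again 1 Strait fish, fish 2809 at -0.09, lay above the west coast mean of -0.12. The difference was 1.11 (SE 0.21, limma adjusted p = 0.0356, 2.16-fold).

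Both rises lost their call under other settings. With fork length as a term both missed the threshold (0.91 and 0.92, limma adjusted p = 0.228 for each). Against the northern-mid Strait alone the differences were 1.09 (adjusted p = 0.119) and 1.07 (adjusted p = 0.144). The call at C166R130 was kept only without fish 2360 or 2361 of the 8 fish left out in turn, and that at C061R037 only without 2289, 2360 or 2361. Apart from these omissions, the call was lost under 7 alternatives at C166R130 and under 10 at C061R037. In contrast to these, C055R074 and C209R015 were called with fork length as a term (-2.07 and -1.83, adjusted p = 0.021 for each).

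**Figure D2:**
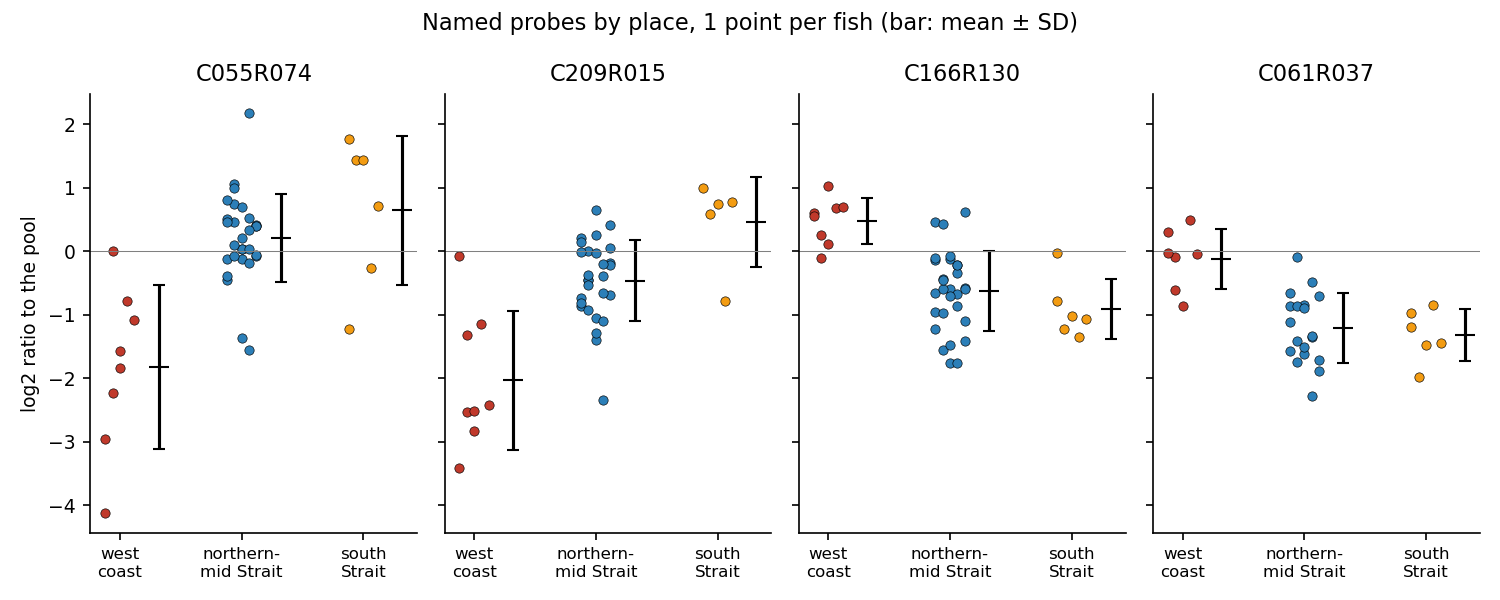
Log2 ratio to the pool (y axis) of the 4 named probes in each fish, by place, with mean ± SD beside the points. West coast fish sit low at C055R074 and C209R015 and high at C166R130 and C061R037, and Strait fish overlap the west coast range at each probe, 12 of 35 at C055R074, 20 of 33 at C209R015, 6 of 35 at C166R130 and 7 of 25 at C061R037.

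The remaining 4 called probes were all lower on the west coast, by 0.87 to 1.15 on the log2 scale (limma adjusted p 0.00901 to 0.0355). No probe parted the coasts fully: among 27472 probes with at least 6 west coast and 18 Strait values, 0 had ranges that did not overlap (0.0%).

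The named probes were also read in the other groups of the series. In the fall of 2009 C055R074 averaged -0.09 ± 1.17 (SD, n = 7) on the west coast and 0.26 ± 0.89 (n = 43) in the Strait, so the summer west coast mean of -1.82 ± 1.30 (n = 8) was lower than either. The mean of the 12 spring fish of 2009, -0.68 ± 1.27, lay between the summer means. At C166R130 the summer west coast mean of 0.48 ± 0.37 (n = 8) lay above spring (-0.05 ± 0.42, n = 12) and above fall on both sides (-0.86 ± 0.75, n = 7, and -1.10 ± 0.52, n = 42). At C209R015 the summer west coast mean was -2.03 ± 1.09 (n = 8). West coast fish of fall 2008 averaged -1.52 ± 1.07 (n = 16) there, and parr -1.37 ± 0.48 (n = 5). At C061R037 smolts of 2008 averaged 0.00 ± 1.02 (n = 11), above the summer west coast mean of -0.12 ± 0.48 (n = 7). The probes were chosen for their summer coast difference, which by itself favours an extreme summer west coast mean. The means of the groups were not tested against each other here. Of the 8 called probes, 1 was called between the coasts in fall 2009, where 9.73% of all tested probes were called, so this count is near the share over all probes.

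The Strait fish differed among themselves by place. Over 15861 probes with a value on all 43 arrays, component 1 held 23.8% of the variance and component 2 held 7.09%. On component 1 the 8 west coast fish scored from 2.61 to 49.6 with a median of 27.8, and the 35 Strait fish from -134.0 to 50.4 with a median of 4.37. The west coast fish lay in the upper part of the Strait range. South Strait fish averaged -59.6 ± 57.2 (SD, n = 6) and the northern-mid Strait 4.31 ± 29.7 (n = 29). All 5 south Strait fish of stock region ECVI scored below -40, while the sixth, a Fraser fish (2014), scored 36.4. In the northern-mid Strait 1 of 5 ECVI fish (fish 2701, at -104.0) and 1 of 24 others scored below -40. This limit was not part of the planned tests. It falls between ECVI fish 1876 of the south (-43) and 2698 of the northern-mid Strait (-38.2). Median scores were -75.5 for south ECVI, -3.83 for northern-mid ECVI and 8.93 for other northern-mid fish. Place and stock are therefore mixed inside the Strait too, and their parts were not tested.

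West coast fish scored higher than Strait fish on component 1 by 35.7 (exact permutation test, two-sided, p = 0.0232, adjusted p = 0.0463 over 4 components; 8 of 8 above the Strait mean). Against the northern-mid Strait alone the difference was 24.7 (adjusted p = 0.0612) and missed the threshold. Without fish 2701 as well it was 20.9 (adjusted p = 0.0327). That omission was added after the data were seen, and fish 2701 had the lowest northern-mid score (-104). The call with all 35 Strait fish was lost without any one of 7 west coast fish and kept without 2361 (32.7 to 39.5, adjusted p 0.0391 to 0.183). Within the 3 slides that held both coasts, the west coast fish was higher by 31.7, 43.5 and 15.7. The value of 43.5 sets fish 2314 against fish 2890 and 2918, which may be 1 animal. Mean shares of empty values were 30 ± 9.3% (n = 8) on the west coast, 31.9 ± 8.13% (n = 29) in the northern-mid and 38.0 ± 7.61% (n = 6) in the south Strait. The 3 places were not tested together. Over the 43 fish, component 1 was lower where more values were empty (Pearson r = -0.50, permutation p = 0.00061, adjusted p = 0.00107 over 7 relations; Spearman rho = -0.47, permutation p = 0.00209, adjusted p = 0.00366). Without the 2 fish farthest from the median share, r was -0.47, within the 35 Strait fish -0.47 and within the 8 west coast fish -0.86. These relations were chosen after the data were seen, and the part of empty values in the component's coast difference was not tested.

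On component 2 west coast fish scored 18.5 ± 34.2 (SD, n = 8) and Strait fish -4.22 ± 17.0 (n = 35), a difference of 22.7 (exact permutation p = 0.00858, adjusted p = 0.0343). Fish 2314 at 97.3 stood far from the next west coast fish at 28.9. Without it the difference was 11.4 (adjusted p = 0.196). After all arrays were scaled to the same SD, the second component differed by 5.3 between the coasts (adjusted p = 0.528). Components 3 and 4 did not pass (adjusted p = 0.985 for each).

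**Figure D3:**
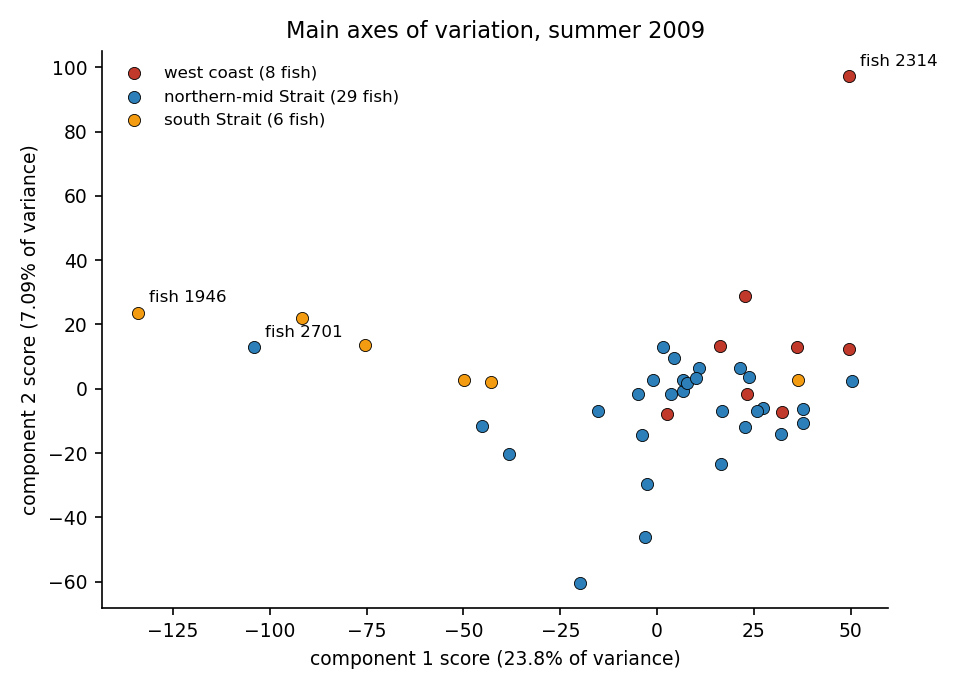
Scores on component 1 (x axis, 23.8% of the variance) and component 2 (y axis, 7.09%) of the 43 fish, coloured by place. The west coast fish lie right of 0, 5 of 6 south Strait fish lie left of -40, and fish 2314 lies alone at 97.3 on component 2.

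Pairs of west coast arrays had the highest median correlation once each probe was centred on its mean over the 43 fish. After the mean of each probe was subtracted, pairs of west coast fish correlated over probes with a median of 0.121 (28 pairs), pairs of Strait fish with -0.0293 (595 pairs) and mixed pairs with -0.0254 (280 pairs). By the correlations without that subtraction, the closest array to a west coast fish was that of another west coast fish in 5 of 8 cases. The subtracted mean rests on 35 Strait and 8 west coast fish, so any coast difference stays mostly in the west coast values. This by itself favours higher correlations among west coast pairs. These values describe the arrays and were not tested. The single pairs spread widely, from -0.117 to 0.439 on the west coast.

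The 2 places of the Strait gave different counts against the west coast. Against the 6 south Strait fish, 3163 of 27722 probes were called (11.4%; limma, adjusted p under 0.05), with west coast levels higher at 2135 and lower at 1028. Against the 29 northern-mid Strait fish, 4 of 33089 were called (0.0121%), all lower, with 4002 at an unadjusted p under 0.05 (12.1%). Inside the Strait, the northern-mid and south fish differed at 2271 of 27850 probes (8.15%), 1790 higher and 481 lower in the northern-mid Strait. This last comparison was added after the data were seen. Most south fish were of stock region ECVI and most northern-mid fish were not, so stock differs here along with place. The 3 comparisons share fish.

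The counts with the south Strait moved strongly with single fish. Without south Strait fish 2014, which scored 36.4 on component 1, 7291 probes were called against the west coast and 5526 between the Strait places. Without fish 1896 the counts were 672 and 487, without fish 1946 they were 831 and 27, and without fish 2002 they were 951 and 918. Leaving out 1884 gave 1703 and 1687, and leaving out 1876 gave 2071 and 1828. Of the west coast fish, leaving out 2286 (1585) or 2360 (1895) lowered the count against the south by more than 1.5 times, and the other 6 gave 2447 to 3063.

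The summer difference was set beside the coast difference of fall 2009, measured in other fish (7 west coast, 43 Strait, of which 21 were northern-mid and 22 south). In fall, 2830 of 29076 probes were called (9.73%). West coast levels were lower at 1831 of them (6.3%) and higher at 999 (3.44%). Over the 28813 probes measured in both seasons, 69.3% had the same sign, and the differences correlated across probes with r = 0.510. Probes are not independent replicates, so this r is a description of the 2 sets of arrays. Of the 1825 probes called lower on the west coast in fall and also tested in summer, 91.0% were lower in summer too, with a summer median of -0.34 against -0.82 in fall. Of the 999 called higher in fall, 77.5% were higher in summer, with a median of 0.26 against 0.94. Both sets were chosen by their fall difference, which favours larger medians in fall. The medians therefore do not compare the size of the coast difference between the 2 seasons.

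The summer differences were also set beside fall for each Strait place. With the northern-mid Strait alone, 66.0% of all probes had the fall sign (r = 0.403), and the medians of the fall-lower and fall-higher probes were -0.30 and 0.17. With the south Strait alone, 75.7% did (r = 0.669), and the medians were -0.59 (1815 probes) and 0.58 (987 probes). Probes in the highest of 10 classes of the fall difference, with a fall median of 0.93, had a summer median of 0.22 against the northern-mid and 0.98 against the south Strait. In the lowest class, with a fall median of -0.76, the summer medians were -0.29 and -0.60. The difference between these slopes was not tested. The classes too were ordered by fall values, so their fall medians are open to the same selection.

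**Figure D4:**
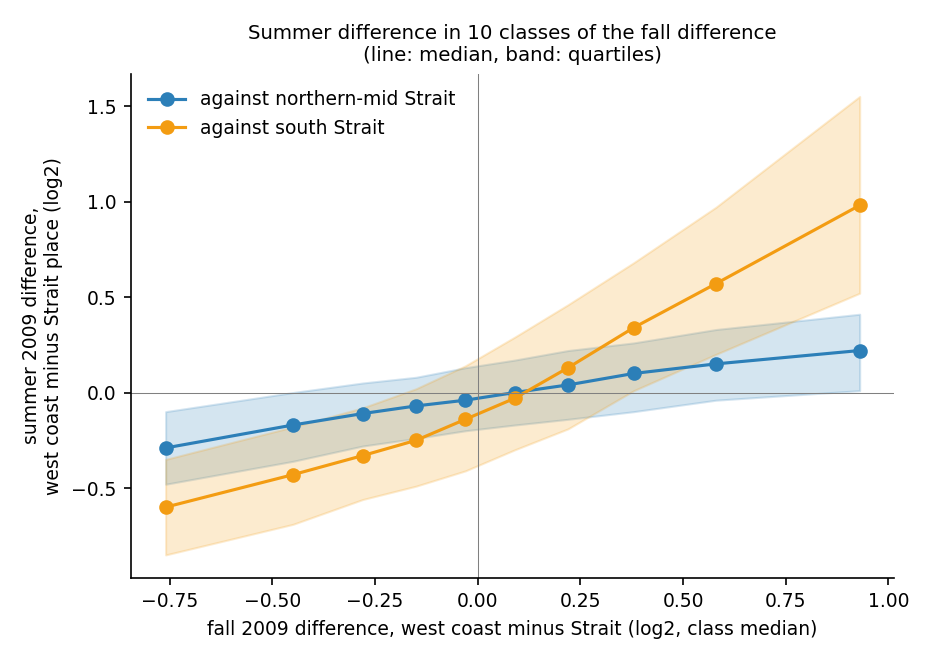
Summer 2009 difference between the west coast and each Strait place (log2, y axis) in 10 classes of 2686 probes ordered by the fall 2009 coast difference (log2, x axis, class medians). Lines are medians and bands quartiles, and the line for the south Strait runs from -0.60 to 0.98 while that for the northern-mid Strait runs from -0.29 to 0.22.

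The coast difference of fall 2008 gave another picture. That comparison called 626 of 30971 probes (2.02%) between 17 west coast and 11 Strait fish. Over 30438 shared probes, 45.5% had the same sign as in summer 2009 and r across probes was -0.218. Of the 367 probes called lower there, 73.3% were lower in summer 2009, and of the 258 called higher, 57% were higher.

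Each summer fish was then placed on axes drawn from other fish, over 10942 probes with a value on all 206 arrays. On the coast axis of fall 2009, where the fall Strait mean is 0 and the fall west coast mean is 1, the west coast fish scored from 0.767 to 1.11 with a median of 0.955. The Strait fish scored from -0.435 to 1.13 with a median of 0.648. All 8 west coast fish stood above the Strait mean, and 13 of 35 Strait fish stood above the lowest of them. Means were 0.962 ± 0.122 (SD, n = 8) and 0.615 ± 0.376 (n = 35), a difference of 0.347 (exact permutation test, two-sided, p = 0.0137) that did not pass after adjustment over 5 axes (adjusted p = 0.0684).

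This axis and component 1 had the same fish at their low end: the 8 lowest fish were the same, 5 of them from the south and 3 from the northern-mid Strait. Their scores correlated with a Pearson r of 0.97 over the 43 fish and 0.97 within the Strait fish alone. The axis thus also follows the main variation inside the Strait. South Strait fish averaged 0.161 ± 0.47 (SD, n = 6) on the axis and northern-mid fish 0.708 ± 0.281 (n = 29). Against the northern-mid Strait alone the difference was 0.253 (exact permutation, adjusted p = 0.0914), and against the south Strait alone 0.801 (adjusted p = 0.005). Within the 3 shared slides it was 0.35, 0.49 (fish 2314 against 2890 and 2918) and 0.0336. Leaving out fish 2360 or 2361 brought the adjusted p below the threshold (0.0494 and 0.0319).

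Of the other groups, winter west coast fish had a mean as high as the summer west coast fish, at 0.992 ± 0.546 (SD, n = 6). Several lay between the summer means of both sides: fall 2008 fish of the west coast at 0.792 ± 0.683 (n = 17) and of the Strait at 0.761 ± 0.251 (n = 11), smolts of 2009 at 0.755 ± 0.34 (n = 35) and spring fish at 0.763 ± 0.379 (n = 12). The Strait summer fish of 2008 averaged 0.014 ± 0.84 (n = 8). These groups were not tested against each other.

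**Figure D5:**
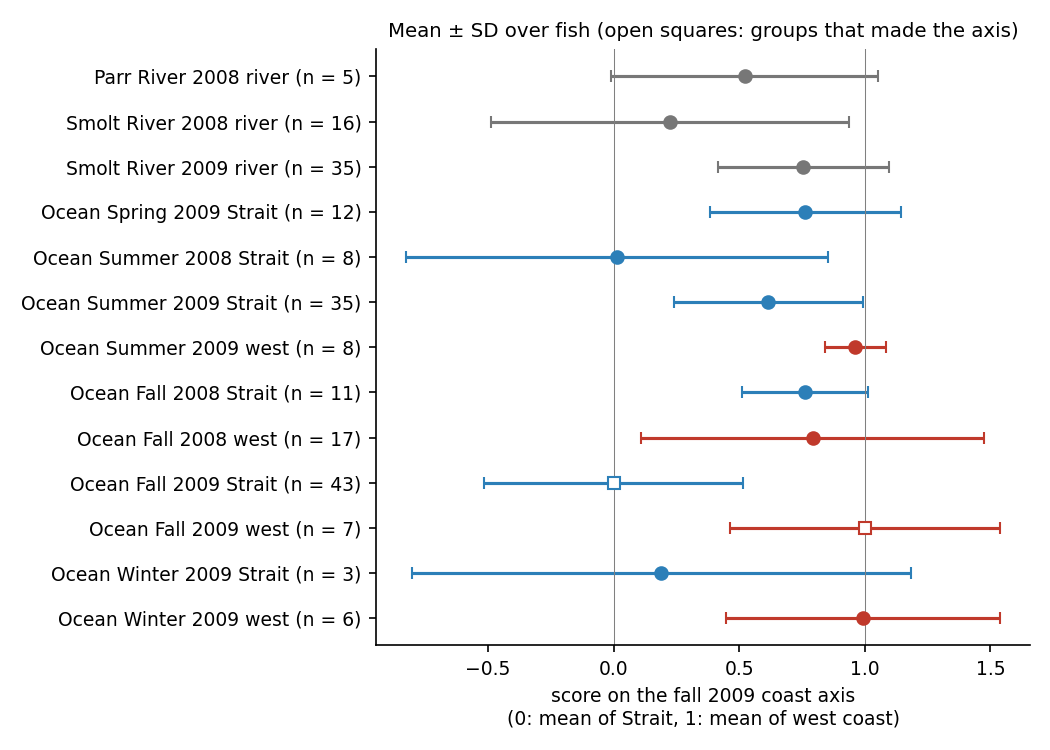
Mean ± SD over fish of the score on the fall 2009 coast axis (x axis, no unit) for each group of season, year and side. The summer 2009 west coast fish average 0.962 with the narrowest bar, the summer 2009 Strait fish 0.615, and both groups of fall 2009 define 0 and 1.

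None of the other 4 axes passed with all 43 fish. On the summer to fall axis of 2008 the west coast fish averaged 0.958 ± 0.0926 (SD, n = 8) and the Strait fish 0.788 ± 0.287 (n = 35; exact permutation p = 0.0963, adjusted p = 0.12). On the axis from smolts to spring fish of 2009 the means were 0.574 ± 0.227 and 0.399 ± 0.25 (exact permutation p = 0.0772, adjusted p = 0.12). The length axis, drawn from fall Strait fish and read in cm relative to their mean, gave -7.42 ± 2.48 and -5.56 ± 2.08 (exact permutation p = 0.033, adjusted p = 0.0825). The length axis passed without fish 2360 (-2.17, adjusted p = 0.0494) or 2361 (-2.41, adjusted p = 0.0319), 2 of the 8 omissions of a west coast fish. With arrays scaled to the same SD its coast difference was -0.715 (exact permutation, adjusted p = 0.533). In the length range of the west coast fish it was -1.24 (adjusted p = 0.281), and with Columbia fish only -1.24 (adjusted p = 0.249). On the coast axis of fall 2008 the means were 0.272 ± 0.107 and 0.38 ± 0.405 (exact permutation p = 0.492, adjusted p = 0.492).

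Few probes were called for a change of the coast difference between summer and fall of 2009. With 8 and 7 west coast fish the test has little reach, so probes that were not called are not shown to be unchanged. An interaction of coast and season was called at 17 of 28813 probes (0.059%; limma, adjusted p under 0.05), and 2681 had an unadjusted p under 0.05 (9.3%). The west coast minus Strait difference was lower in summer at 12 of the 17 and higher at 5. It had opposite signs in the 2 seasons at 16, and was larger in size in fall at 13. Over all 28813 probes, 69.3% had the same sign in both seasons. The 17 were called for a gap between the seasons, which by itself favours opposite signs and a large value in 1 season. These counts are therefore no separate result on a reversal.

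At C213R087 the coasts were close in summer, at -0.27 ± 0.40 (SD, n = 8) on the west coast and -0.52 ± 0.83 (n = 35) in the Strait. In fall they stood apart, at -1.52 ± 1.17 (n = 7) and 0.23 ± 0.83 (n = 43). The coast difference was higher in summer by 2.09 (SE 0.47, limma adjusted p = 0.0412). At C022R059 the order of the means turned: -1.14 ± 1.5 (n = 8) against -0.03 ± 0.83 (n = 35) in summer, and 1.18 ± 1.17 (n = 7) against 0.16 ± 0.70 (n = 43) in fall. The summer difference of -1.12 did not itself pass (limma adjusted p = 0.137). Fish 2314 at -4.32 and fish 2311 at -2.29 were the lowest of the west coast, and the other 6 lay between -1.08 and 0.28. In the Strait, fish 2786 at -3.62 and fish 2791 at -1.29 were the lowest. The coast difference was lower in summer by a log2 value of -2.20 (SE 0.49, limma adjusted p = 0.0416). Neither season difference held under all settings. With the position on the slide as a term or with wild fish only, 1 probe was called and neither named probe passed. Both also missed the threshold with fork length as a term (1.83 and -1.59, adjusted p = 0.109 and 0.19) and with northern-mid fish alone as the Strait side, added after the data were seen (1.99 and -2.22, adjusted p = 0.104 and 0.079). With array weights C022R059 moved to -1.32 (adjusted p = 0.139), and with quantile normalization to -1.91 (adjusted p = 0.0706).

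The share of fish with a value was compared per probe as well. Fisher's exact test, two-sided, called 0 of 26915 probes (0.0%) after adjustment, and 541 had an unadjusted p under 0.05 (2.01%), 489 of them with a value more often on the west coast (1.82%) and 52 less often (0.193%). Probe C012R160 had a value in 5 of 8 west coast and 1 of 35 Strait fish (Fisher's exact p = 0.000326, adjusted p = 1). Probe C168R067 had one in 4 of 8 and 34 of 35 (Fisher's exact p = 0.0026, adjusted p = 1).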

How the data were processed

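Brain RNA of 43 coho salmon was measured on 2-colour arrays. The deposited values are the authors' processed log ratios of fish and pool, taken as log2, a base that rests on the values alone. Dyes, reference pool and RNA extraction are per the labels' protocols. The sources used here do not give the feature extraction, background correction, normalization or the filter behind empty values. A second table with identical values was left aside.

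Groups come from the season, year and place labels. The members and lists were chosen with earlier results of these data known. Per-probe tests used limma (3.58.1, R 4.3.3) with the slide as a random block (consensus correlation 0.056, and 0.12 with fall, from 2000 probes) and moderated variances. Calls are at a Benjamini-Hochberg adjusted p under 0.05 over all probes with at least 3 values a side; 10519 of 43630 probes had fewer. Each probe was fitted on the fish with a value. The code was tested on simulated data.

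Single values were tested exactly over all ways to assign the fish with a value to the coasts, 43 in most cases and 41 for mass and condition. Principal components used 15861 complete probes. Axes from other fish were mean differences (or slopes on length) over median-centred arrays, and a fish's score is its projection. Named coast probes are 2 called rises and 2 called falls, the largest among probes with values on at least 6 west coast and 18 Strait fish, the extreme probe each way for the season interaction, and the lowest p each way for presence of a value. Alternatives varied slide, position, normalization, filters, length, origin, stock and fish. The labels do not name catches, but west coast fish share capture coordinates, at latitudes 48.675 (3 fish), 49.107 (3) and 49.836 (2). Fish of 1 site may not be independent, while the tests took each fish as independent. The p-values therefore measure only the spread between these fish.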

Additional observations from a re-analysis of the deposited data

Results flagged for a closer look

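Among 38 sets of values (the 8 west coast and 6 south Strait fish over fish measures, components, axes and named probes), 3 held a fish far from the rest, where chance gives about 1 in 20. Fish 2314 of the west coast scored 97.3 on component 2, and the next fish 28.9. South Strait fish 1946 had an array median of 0.0597, and the next fish 0.00967. The same fish 1946 had a log2 ratio of -0.79 at probe C209R015, where the nearest of the other 4 south Strait fish with a value stood at 0.59.

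The coast difference was tested as different between summer and fall 2009 at 17 probes (limma interaction, adjusted p under 0.05). Among them, the summer minus fall coast difference was 2.09 at C213R087 and -2.20 at C022R059. The part of single fish in these results was not tested.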

How the results depend on the processing

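The 8 calls between the coasts became 0 with the slide as a fixed term or with wild fish only, 2 in the length range, 3 with fork length as a term, 4 against the northern-mid Strait (3 without fish 2701 as well, added after seeing the data), 4 with probes complete on 43 arrays and 5 with Columbia fish only. They became 14 with quantile normalization, 16 with arrays scaled to the same SD, 64 with array weights, 295 and 335 with all arrays (slide fixed and random) and 3163 against the south Strait. Leaving out 1 west coast fish gave 2 to 75. Of the 8 calls, 6 were among the 14 with quantile normalization, 6 among the 295 and 3 among the 5 with Columbia fish. The 17 season calls became 54 with fork length, 1 with position, 1 with wild fish and 5 with northern-mid fish alone (added after seeing the data). Only 9 of the 17 were among the 54. With array weights 14 probes were called, and 6 of them were among the 17.

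Component 1 missed the threshold with arrays scaled (30.8), in the length range (37.2), with wild fish (42.4), against the northern-mid Strait (24.7), with Columbia fish (35.6) and on position 1 (62.6), and component 2 with arrays scaled (5.3), in the length range (14.5), with wild fish (20.5), against the south Strait (7.35), with Columbia fish (21.9) and on position 1 (27). Without 1 west coast fish, component 1 ran from 32.7 to 39.5, component 2 from 11.4 to 26.5, component 3 from -5.69 to 3.48 and component 4 from -8.44 to 1.5. Component 3 turned to -0.301 without fish 2918 and component 4 to 8.15 on position 1. With scaled arrays the fourth component passed (-25.4, exact permutation, adjusted p = 0.000625). It is another axis, with an absolute correlation of 0.08 to the unscaled one and 0.37 to unscaled component 2. The scaled second component (5.3) is likewise largely another axis, with an absolute correlation of 0.43 to the unscaled one.

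Against the south Strait all 5 axes passed: 0.801 and -0.618 for the coast axes of fall 2009 and 2008, 0.549 for summer to fall, 0.301 for smolt to spring and -3.07 cm for length. These are not 5 separate results. Over the 43 fish, component 1 correlated with the fall 2009 coast axis (Pearson r = 0.97) and the summer to fall axis (0.97). With the fall 2008 coast axis, r was -0.86 (Spearman rho -0.58). Without 1 west coast fish the fall 2009 axis gave 0.326 to 0.375 and the length axis -2.41 to -1.55. The fall 2008 axis turned to 0.04 against the northern-mid Strait without fish 2701 (added after seeing the data), and the array median to -0.000815 with wild fish. The cause of these changes was not tested, including where fewer fish or probes entered. No paired analysis was possible because the groups share no fish numbers; the 3 slides with both coasts were compared through the fixed slide term. The 3 alternatives for presence of a value also gave 0 calls, with the counts of fish limiting what Fisher's exact test can reach.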
